A study of Mus musculus with 4 samples.

Results

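Disease-associated-like (DAM-like) microglia are the cells described here. They were chosen by their measured transcript counts, from the unique molecular identifiers (UMIs, each standing for 1 captured RNA molecule) of each cell barcode. A barcode was a member when it held at least 1000 UMIs with no more than 15.8% from mitochondrial genes, at least 60 UMIs of the complement genes C1qa, C1qb and C1qc per 10000, no more than 2 UMIs of the border-macrophage genes Mrc1, Pf4 and Cbr2, no more than 5 UMIs of the endothelial genes Cldn5, Flt1 and Ly6c1, and at least 5 UMIs of Spp1, Cst7, Clec7a, Lpl, Gpnmb and Itgax together. Of 36876 barcodes in 4 libraries, 6429 met every limit but the last and are called microglia-gated. Of these, 799 met the last limit too and are the DAM-like cells. The other 5630 microglia-gated cells served as the comparison. Because the 6 gate genes chose the members, their levels are given as a description with no test.

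Microglia are the resident macrophages of the brain, and the study compared adult with aged mice and low with high fiber. Whole brains of C57BL/6J mice were dissociated, depleted of myelin, debris and dead cells, and profiled by droplet single-cell RNA sequencing, with 1 library from 1 mouse for each combination of age and diet. Adult mice were 3 to 4 months old and aged mice 23 to 24 months old when the diets began. All mice received a purified diet with 1% cellulose, which held 0% inulin (the low-fiber label) or 5% inulin (the high-fiber label), a fermentable plant fiber. The mice were male according to the study's methods. The libraries held 9246 barcodes and 115814810 UMIs (adult, 0% inulin), 10256 and 111648775 (adult, 5%), 7881 and 88248117 (aged, 0%), and 9493 and 108131200 (aged, 5%). Each age, and each diet, is therefore represented by 2 mice, and age and diet effects cannot be separated from differences between single mice within an age and diet. By the study's methods, the adult mice came from an in-house colony and the aged mice from the National Institute on Aging. Bedding was mixed only among mice of similar age. Age therefore cannot be told apart from the source of the mice.

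Microglia survey the brain with branched processes and are kept in a surveying, or homeostatic, state by signals such as colony-stimulating factor and transforming growth factor beta. Near amyloid plaques, dying neurons, damaged myelin and in the aged white matter, part of the population lowers its homeostatic genes and raises genes for lipid uptake, lysosomal digestion and secreted factors. This disease-associated state was named in mouse models of neurodegeneration, where its later stage depends on the lipid-sensing receptor Trem2 and its adaptor Tyrobp. Of the gate genes, Spp1 encodes the secreted protein osteopontin, Cst7 an inhibitor of lysosomal proteases, Clec7a the glucan receptor dectin-1, Lpl the lipoprotein lipase, Gpnmb a glycoprotein of lysosome-rich cells, and Itgax the integrin CD11c.

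DAM-like cells were a far larger share of microglia in the aged mice. They numbered 34 of 1539 microglia-gated cells (2.21%, exact 95% binomial interval 1.53 to 3.07) in the adult mouse on 0% inulin and 23 of 1563 (1.47%, 0.935 to 2.20) in the adult mouse on 5%. They numbered 317 of 1712 (18.5%, 16.7 to 20.4) in the aged mouse on 0% and 425 of 1615 (26.3%, 24.2 to 28.5) in the aged mouse on 5%. Both aged mice lay above both adult mice, and the intervals, which cover counting error only, did not meet. The mean share was 1.84% ± 0.52 (SD, n = 2) in adult and 22.4% ± 5.5 (SD, n = 2) in aged mice, a difference of 20.6 percentage points. A two-sided exact permutation test over mice gave p = 0.33, the smallest p that 2 mice against 2 allow. Since a count of UMIs sets the gate, each cell was also thinned to 2000 UMIs with the gate lowered to 2. The shares were then 1.96% and 2.15% in the adult and 16.9% and 24.0% in the aged mice. Among all barcodes within the UMI and mitochondrial limits, DAM-like cells made up 0.432% and 0.269% in the adult and 4.78% and 5.40% in the aged mice.

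**Figure D1:**
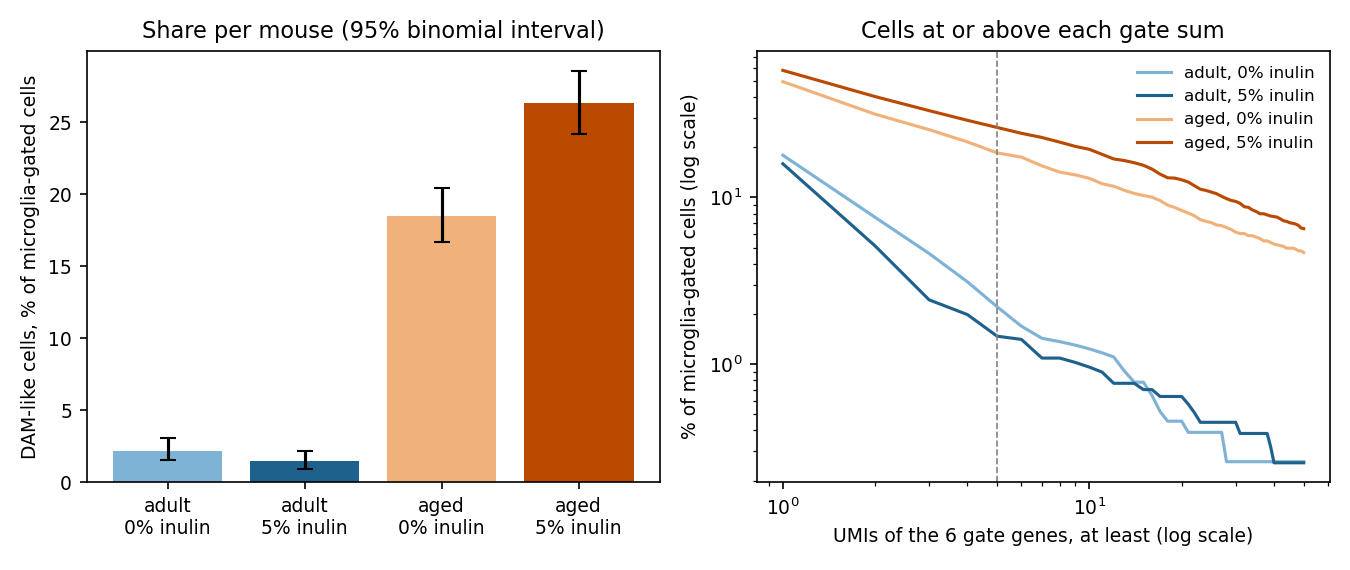
Left, DAM-like cells as a percentage of microglia-gated cells in each of the 4 mice, with the exact 95% binomial interval. Right, percentage of microglia-gated cells with at least the number of gate UMIs on the x axis (both axes log), 1 line per mouse and the limit of 5 UMIs dashed. The 2 aged mice sit at 18.5% and 26.3%, the 2 adult mice at 2.21% and 1.47%.

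The gate was met through several genes at once in most cells. In 81.9% of the 799 cells, 3 or more of the 6 genes were detected, and the median number was 3 in each adult mouse and 4 in each aged mouse. The median gate sum was 11.5 and 14 UMIs in the adult mice and 17 in both aged mice, with a highest value of 1475. Just outside the limit, 14, 8, 52 and 44 microglia-gated cells of the adult 0%, adult 5%, aged 0% and aged 5% mice (the order used for every set of 4 values) held 4 gate UMIs. Just inside it, 8, 1, 18 and 33 cells held 5. The cells at 4 UMIs held Apoe at 16695, 11734, 16316 and 15803 UMIs per 1000000 UMIs of the summed cells (unscaled CPM, counts per that many UMIs), and those at 5 held 20421, 325, 8944 and 19628. Without Spp1 in the gate, 30 of the 799 cells would have dropped out.

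Single cells carried much of some gate genes in the adult mice. Spp1 stood at 1101, 4907, 2797 and 2169 unscaled CPM in the summed DAM-like cells, but 1 cell held 72.3% and 84.4% of these UMIs in the adult mice, against 9.05% and 11.2% in the aged mice. Cst7 stood at 144, 199, 535 and 507 unscaled CPM, and Clec7a at 661, 590, 673 and 651. Gpnmb came from 1 cell in each adult mouse. At least 1 Spp1 UMI was seen in 35.3%, 26.1%, 59.0% and 61.6% of DAM-like cells, and in 4.27%, 4.02%, 11.2% and 12.3% of endothelial-gated cells, a class that should lack the transcript and so shows the free RNA of the suspension. The median depth was 10375.5, 9134, 11915 and 12514 UMIs per DAM-like cell against 6903, 6589, 7533.5 and 7557.5 per endothelial-gated cell. In the other microglia-gated cells, 1.33%, 1.04%, 7.67% and 11.3% held a Spp1 UMI. The gate left these cells at most 4 UMIs of the 6 genes, so their share cannot be read against the endothelial one.

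DAM-like cells were deeper than the rest of the microglia-gated cells of each mouse, whose medians were 6431, 6491.5, 6632 and 6329 UMIs. A cell with more UMIs reaches a fixed gate count more easily, and the part of depth in the class was not separated beyond the thinned values. At an equal 2000 UMIs per cell, DAM-like cells showed a median of 1037, 1079, 947.5 and 915 genes against 1143, 1132, 1109 and 1082 in the other cells, so fewer genes took up a given number of UMIs. The median mitochondrial share was 2.91%, 2.62%, 3.16% and 3.35%. The doublet caller Scrublet marked 27 DAM-like cells (3.38%) and 222 other microglia-gated cells (3.94%). An upper limit of 22005 UMIs, placed here 3 median absolute deviations over the median barcode, was passed by 56 DAM-like cells (7.01%) and 25 others (0.444%). Across libraries, 192 barcode sequences occurred more than once. Of the DAM-like cells 2 carried such a barcode, and 0 barcode sequences were shared between DAM-like cells.

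Genes of the disease-associated program outside the gate ran strongly higher in DAM-like than in other microglia-gated cells of the same mouse, and homeostatic genes ran lower. UMIs were summed per mouse and class and fitted with edgeR's quasi-likelihood test with the mouse as a block. A call needed a fold change above 1.5 with a Benjamini-Hochberg adjusted p under 0.05, over 14524 genes outside the gates. By this rule 8.16% of genes were called higher (1185) and 8.12% lower (1180), with a median log2 difference of -0.10 over all genes. The cells of both classes were split by the gate, so these differences describe what went with the 6 genes and are no independent evidence for the class. Of 30 further disease-associated genes, 28 were called higher and 0 lower, with a median log2 difference of 1.67. Of 20 homeostatic genes, 0 were called higher and 15 lower, with a median of -0.92.

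The genes with the largest rises are given first. Where not called unscaled, CPM of the summed cells were scaled by edgeR within each fit. Igf1 (insulin-like growth factor 1, chr10:87858265-87937042 of GRCm38) stood at 79.7, 67.3, 127 and 156 CPM in DAM-like cells and at 0.797, 0.442, 1.96 and 2.61 CPM in the other cells, a log2 difference of 6.18 ± 0.15 (SE), with 61.8% and 73.7% of the adult UMIs in 1 cell each. Lgals3 (galectin-3, a lectin of phagocytic cells, chr14:47367751-47386160) stood at 654, 663, 812 and 845 CPM against 10.8, 6.81, 19.9 and 26.5, a log2 difference of 5.62 ± 0.16. The lowest DAM-like mouse exceeded the highest value in other cells by a wide margin for both. Csf1, the growth factor that microglia themselves depend on, stood at 192, 170, 260 and 257 CPM against 11.7, 13, 29.3 and 29.1 (log2 3.38 ± 0.12). Axl, a receptor for phosphatidylserine-bearing debris, stood at 93.8, 95.7, 207 and 192 CPM against 10.8, 9.11, 32.5 and 39.6 (log2 2.62 ± 0.12). Lyz2 (lysozyme) was uneven between the adult mice, at 8212, 1718, 6387 and 6631 CPM against 382, 357, 698 and 881, and 1 cell held 78.8% of its DAM-like UMIs in the adult mouse on 0%. Fam20c, Gm1673, Wfdc17, Ms4a7, Cybb (the oxidase subunit of phagocytes) and Gadd45b were among the 12 largest rises, with log2 differences from 3.09 to 3.89. Fabp5 and Apoe, given with the lipid genes below, were among them too, and Axl was not.

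Trem2, the lipid-sensing receptor, and its adaptor Tyrobp had smaller differences than the genes above. Trem2 stood at 2966, 2395, 4073 and 4246 CPM in DAM-like cells and at 2382, 2482, 2579 and 2580 in the other cells (log2 0.42 ± 0.10) and was not called, since its fold change stayed under 1.5. The adult mouse on 5% inulin had slightly less Trem2 in DAM-like than in other cells, and the other 3 mice had more. Tyrobp stood at 4156, 3458, 5662 and 5733 CPM against 2392, 2454, 2625 and 2812 (log2 0.86 ± 0.10) and was called higher. Of 17 tested genes around this receptor, 2 were called higher (Tyrobp and Ms4a6c) and 6 lower, with a median log2 difference of -0.35. The lower ones were Abi3, Cd33, Ms4a6b, Inpp5d, Cd2ap and Pik3r1. Cd33 and Inpp5d encode an inhibitory receptor and a phosphatase that oppose such signals, and their log2 differences were -0.78 ± 0.10 and -0.72 ± 0.10. Members of a list named beyond its 4 most abundant genes were picked after their values were seen.

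**Figure D2:**
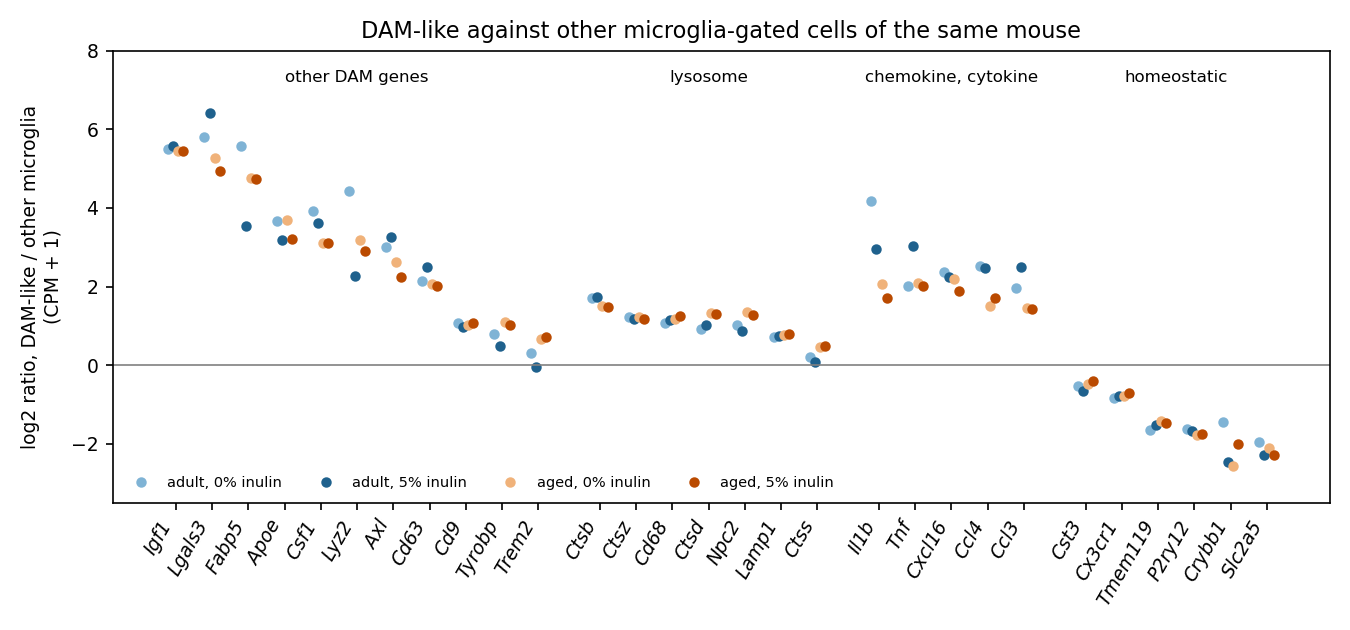
Log2 ratio of DAM-like to other microglia-gated cells of the same mouse (CPM + 1) for disease-associated, lysosomal, chemokine and cytokine, and homeostatic genes outside the gate, 1 point per mouse, with 0 marking equal levels. Igf1 and Lgals3 sit highest, and P2ry12 and Tmem119 lie below 0 in all 4 mice.

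Most tested lipid-handling genes were called higher. Of 23, 15 were higher, 0 lower and 8 not called, with a median log2 difference of 1.25. Apoe (apolipoprotein E, chr7:19696109-19699188), the main lipid carrier of the brain, stood at 22489, 15076, 47826 and 52935 CPM in DAM-like cells and at 1753, 1657, 3718 and 5725 CPM in the other cells, a log2 difference of 3.44 ± 0.10. Each DAM-like value exceeded all 4 values of the other cells, and the 2 aged mice were high in both classes. At 2000 UMIs per cell, Apoe was seen in 81.8%, 73.9%, 96.5% and 95.3% of DAM-like cells. The shares were 58.5%, 59.6%, 73.6% and 77.4% in the other cells, and 92.9%, 92.6%, 93.3% and 93.8% in endothelial-gated cells. The part of free RNA in the Apoe levels was not tested. Fabp5, a fatty-acid carrier, stood at 1102, 369, 771 and 893 CPM against 22.3, 30.5, 27.7 and 32.7 (log2 4.75 ± 0.17), with 84.9% and 89.4% of the UMIs of the adult mice in 1 cell each. Further up were Ch25h (cholesterol 25-hydroxylase, log2 4.87 ± 0.18), Nceh1 (cholesteryl-ester hydrolysis, 2.29 ± 0.11), Plin2 (lipid-droplet coat, 1.67 ± 0.11) and Soat1 (cholesterol esterification, 1.09 ± 0.10). The cholesterol synthesis genes moved less, with 5 of 19 called higher, 0 lower and a median log2 difference of 0.47.

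Lysosomal genes rose in part. Of 34 tested, 20 were called higher and 1 lower (Ctsf, log2 -0.60 ± 0.10), with a median of 0.65. The proteases Ctsb and Ctsd stood at 4346, 4379, 4742 and 4245 CPM against 1334, 1304, 1665 and 1520 (log2 1.61 ± 0.09), and at 11623, 12330, 15426 and 15123 CPM against 6142, 6049, 6159 and 6182 (log2 1.14 ± 0.09). Neither gene's values overlapped between the classes. Cd63 (2.17 ± 0.10), Ctsz (1.20 ± 0.09), Atp6v1a, a subunit of the proton pump (1.19 ± 0.10), Cd68 (1.17 ± 0.09), the cholesterol exporter Npc2 (1.15 ± 0.10) and Grn, progranulin (0.62 ± 0.09), were called higher too. Ctss, at 5181, 4836, 7449 and 7573 CPM against 4519, 4597, 5393 and 5429, had a log2 difference of 0.31 ± 0.09 and was not called.

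Lysosomal genes are classically driven by the MiT/TFE transcription factors through E-box motifs near their starts, so 300-base promoters (RefSeq, GRCm38.p6) were searched on both strands for TCACGTGA and TCATGTGA. All called-higher members of the lysosome list with a match are shown, with the motif in capitals and 5′ to 3′ on the gene's strand. The motif begins 99 bases before the RefSeq start of Ctsd (chr7:142387908-142387937, minus strand), 132 before that of Atp6v1a (chr16:44139373-44139402, minus strand) and 211 before that of Grn (chr11:102430285-102430314, plus strand).
Ctsd: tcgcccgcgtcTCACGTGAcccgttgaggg
Atp6v1a: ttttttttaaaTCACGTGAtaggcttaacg
Grn: tgattctctaaTCACATGAtccctagaaat
The GENCODE models of Ctsd and Atp6v1a start further upstream than the RefSeq ones, so their stretches lie inside the GENCODE gene, while that of Grn lies just before it. A match was found for 3 of 16 called-higher lysosomal genes with a promoter in the table (18.8%) and for 6 of 27 in the whole lysosome list (22.2%). Among all genes called higher it was found for 34 of 860 (3.95%), among those called lower for 19 of 797 (2.38%), among all genes tested for 278 of 10353 (2.69%) and among all promoters of the table for 529 of 27025 (1.96%). The PU.1 motif GAGGAAGT, of the macrophage factor encoded by Spi1, was found for 36 of the 860 (4.19%), 35 of the 797 (4.39%) and 332 of the 10353 (3.21%). A match of letters is a description of the promoter and not a binding site.

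The homeostatic genes were lower in every mouse for the best-known members. P2ry12 (the ADP receptor that guides microglial processes, chr3:59216272-59262871) stood at 717, 719, 578 and 548 CPM in DAM-like cells and at 2231, 2279, 1993 and 1859 CPM in the other cells, a log2 difference of -1.72 ± 0.09. Tmem119 (a microglial surface marker, chr5:113793729-113800516) stood at 460, 493, 451 and 437 CPM against 1434, 1426, 1202 and 1215 (log2 -1.51 ± 0.10). The classes did not overlap for either gene, and DAM-like cells still held both. Cx3cr1, the fractalkine receptor, showed a log2 difference of -0.77 ± 0.09, Siglech -1.29 ± 0.10, Gpr34 -0.95 ± 0.09 and the fructose transporter Slc2a5 -2.18 ± 0.11. Cst3 (-0.51 ± 0.09) was not called. The largest falls also took in Upk1b (-2.74 ± 0.15), Crybb1, Lrba, Khdrbs3, Adgrg1 and S100a8, whose log2 differences lay between -2.14 and -1.55. S100a8 is a neutrophil gene and stood at 429, 229, 52.0 and 189 CPM in the other microglia-gated cells, and the part of neutrophil RNA in its difference was not tested. Its call was lost at 2000 UMIs per cell and against cells with 0 gate UMIs, with a log2 difference of -0.10 (edgeR adjusted p = 0.794) at 2000 UMIs.

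Levels changed over the whole range of the gate sum and not only at its limit. In the aged mouse on 0% inulin, Apoe stood at 2069, 6575, 23195, 31740 and 49048 unscaled CPM in cells with 0, 1 to 4, 5 to 9, 10 to 19, and 20 or more gate UMIs. P2ry12 stood at 2380, 1788, 1029, 621 and 231 unscaled CPM across the same classes, and Lgals3 at 11.2, 35.1, 64.7, 298 and 1047. The aged mouse on 5% showed the same order for Apoe (2645, 9456, 23989, 33977 and 52792) and P2ry12 (2279, 1541, 787, 621 and 247). In the adult mouse on 5%, Apoe was highest at 10 to 19 gate UMIs (30351) and not at 20 or more (15274), over 5 and 10 cells. The gate sum is the value that chose the members, so these levels are a description. The median depth also went up with the sum, from 6260.5 UMIs at 0 to 15317 at 20 or more in the aged mouse on 0%.

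**Figure D3:**
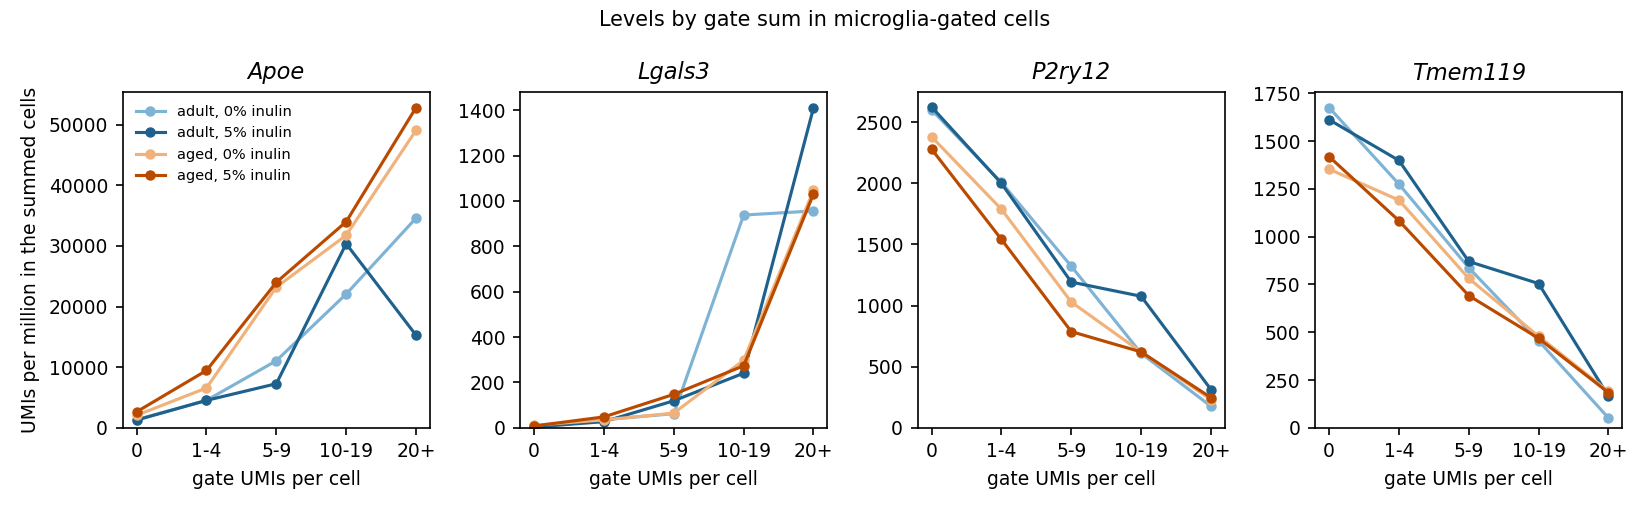
Unscaled CPM (UMIs per 1000000) of Apoe, Lgals3, P2ry12 and Tmem119 in summed microglia-gated cells grouped by the UMIs of the 6 gate genes per cell (x axis), 1 line per mouse. Lgals3 goes up and P2ry12 and Tmem119 go down with the gate sum, Apoe goes up except at 20 or more gate UMIs in the adult mouse on 5% inulin (15274), and groups of 5 or more gate UMIs are the DAM-like cells.

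Of 13 tested chemokines, 10 were called higher and 0 lower, with a median log2 difference of 1.81. Of 14 tested cytokines and growth factors, 7 were called higher and 2 lower (Il18 and Il6), with a median of 0.52. Ccl4 stood at 1348, 1187, 2128 and 2047 CPM in DAM-like cells and 232, 214, 747 and 621 in the other cells (log2 2.04 ± 0.12), and Ccl3 at 1111, 1098, 1702 and 1636 against 285, 195, 617 and 607 (1.81 ± 0.12). Both attract leukocytes. The inflammatory cytokine Tnf stood at 63.3, 174, 191 and 211 CPM against 15, 20.5, 44.2 and 51.8 (log2 2.20 ± 0.12) and Il1b at 185, 67.3, 129 and 110 against 9.21, 7.78, 30.1 and 33.0 (2.37 ± 0.19), while Il18 was called lower (-0.66 ± 0.11). Immediate-early genes, which dissociation can induce, had 6 of 23 called higher and 2 lower (Jun and Rhob), with a median of 0.23. Jun was called in 10 of 16 alternatives and Rhob in 12 of 16. Both calls were lost with the upper UMI limit, without Spp1 in the gate, by DESeq2 and by RLE scaling.

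Antigen-presentation genes were called higher in part. Of 16 class I genes, 6 were called higher and 0 lower (median log2 0.51), among them H2-D1 (1.36 ± 0.10) and B2m (0.98 ± 0.09). Of 8 class II genes, 2 were called higher, Cd74 and H2-Ab1, and 0 lower (median 0.37). The H2-Ab1 call was lost in 9 of 16 alternatives, among them those without either adult mouse (adjusted p up to 0.823 by edgeR or DESeq2), and the Cd74 call by DESeq2. Cd74, the class II chaperone, stood at 2124, 574, 873 and 1156 CPM against 282, 257, 666 and 778 (1.22 ± 0.21). H2-Ab1 was higher in DAM-like cells of both adult mice (642 and 170 CPM against 120 and 95.8) and lower in those of both aged mice (207 and 281 against 240 and 318). Of 25 interferon-response genes, 15 were called higher and 0 lower (median 0.68).

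Among metabolic and housekeeping genes, the share called higher varied by list. Glycolysis had 13 of 17 genes called higher and 0 lower (median log2 1.01), with Pkm at 1.51 ± 0.10 and Gapdh at 1.20 ± 0.09. Ribosomal protein genes had 74 of 80 called higher (median 0.77) and nuclear genes of oxidative phosphorylation 23 of 76 (median 0.48, 53 not called), with 0 lower in both. In the iron list 6 of 10 were called higher, including the ferritin chains Fth1 (2.04 ± 0.11) and Ftl1 and the heme oxygenase Hmox1 (1.64 ± 0.10), and the exporter Slc40a1 was lower (-1.09 ± 0.10). Of 12 cell-cycle genes, 10 were called higher, but their sum was 293, 712, 271 and 263 CPM against 75.9, 75.9, 221 and 127, closer in the aged mice, and Top2a rested on 1 cell in each adult mouse. Mki67 was seen in 2, 1, 5 and 8 DAM-like cells (5.88%, 4.35%, 1.58% and 1.88%) against 0.399%, 0.455%, 1.58% and 0.588% of the other cells. It lost its call in 6 of 16 alternatives, among them those without either adult mouse. Of 12 heat-shock genes, 2 were called higher and 4 lower.

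Most markers of other cell types were not called higher in DAM-like cells. Of 8 neutrophil markers, 0 were called higher and 6 lower, and their sum was 65.1, 80.4, 88.2 and 158 unscaled CPM in DAM-like cells against 1415, 736, 150 and 503 in the other cells (most abundant S100a9). The calls of S100a8 and S100a9 were lost at 2000 UMIs per cell and against cells with 0 gate UMIs, and that of Camp at 2000 UMIs. Of 8 astrocyte markers 5 were lower, with sums of 330, 494, 418 and 524 against 1049, 1220, 819 and 948 (Slc1a3). Of 8 mural markers 5 were lower, with sums of 48.9, 68.9, 168 and 135 against 156, 213, 259 and 241 (Acta2), and of 8 endothelial markers outside the gate 1 was lower, with sums of 126, 84.3, 91.8 and 92.4 against 152, 171, 139 and 159 (Pltp). The neutrophil and astrocyte sums were lower in DAM-like than in other microglia-gated cells in all 4 mice. The choroid plexus gene Ttr made up most of a choroid and ependymal sum of 4919, 3869, 2205 and 6417, against 8309, 6407, 3800 and 7497 in the other cells. The markers of border macrophages summed to 607, 563, 434 and 379 (Maf), against 1092, 1009, 898 and 789, with 4 of 6 tested genes called higher (Ms4a7, Clec4n, Siglec1 and Folr2) and 2 lower. Monocyte markers summed to 60.5, 34.5, 79.8 and 116 (Fn1) against 75.0, 62.9, 72.6 and 95.5, lower in the adult and higher in the aged DAM-like cells. Of 9 tested, Fn1 and Itgal were called higher and 3 lower. T and natural killer markers summed to 2.33, 0, 18.3 and 30.2 (Nkg7), with Cd4 at 0, against 8.68, 2.83, 22.7 and 22.2. Dendritic markers summed to 6.98, 0, 3.86 and 7.46, with Ccr7 at 0, against 13.2, 14.6, 16.3 and 18.2, and Ccl22 was called higher, as was the neuron marker Tubb3. The Tubb3 call was lost in 7 of 15 alternatives (edgeR or DESeq2 adjusted p up to 0.545), that of Ccl22 in 2 of 9, without the adult mouse on 5% and without the aged mouse on 0%, and that of Itgal at 2000 UMIs per cell. The part of RNA from these cells in the class differences was not tested. In DAM-like cells, fibroblast markers summed to 6.98, 7.66, 21.9 and 13, oligodendrocyte markers to 100, 68.9, 83.9 and 90.6, with Opalin at 0, and erythroid markers to 58.2, 84.3, 51.6 and 54.0. The erythroid sums in the other cells were 72.5, 1063, 94.5 and 896, high in both mice on 5%, and all 4 tested erythroid genes were called lower in DAM-like cells (median log2 -2.59). The calls of Hba-a1, Hba-a2 and Hbb-bs were lost by DESeq2, and that of Hbb-bt with no mouse block. B-cell markers stood at 140, 165, 4640 and 149, the high value coming from Igkc in the aged mouse on 0%, where 2 cells held 50 or more immunoglobulin UMIs.

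DAM-like cells were also set against the macrophages of the brain borders. The comparison class held 88, 77, 70 and 80 cells with the same limits but at least 5 UMIs of Mrc1, Pf4 and Cbr2. By the same edgeR rule over 7808 genes, 9.18% were called higher (717) and 10.6% lower (828) in DAM-like cells. Of 20 homeostatic genes, 16 were higher and 0 lower. Tmem119 stood at 447, 486, 419 and 402 CPM against 99.7, 68.8, 108 and 95 in border-macrophage-gated cells (log2 2.22 ± 0.15). The microglial transcription factor gene Sall1 stood at 137, 133, 103 and 92.6 CPM against 7.44, 6.71, 5.05 and 9.50 (3.98 ± 0.23). Of 10 border-macrophage markers outside the gate, all 10 were lower. The scavenger receptor Cd163 was at 0, 0, 0 and 0.212 CPM in DAM-like cells and at 443, 374, 359 and 397 in border-macrophage-gated cells, and no fold is given against such a floor.

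The disease-associated genes did not all separate DAM-like cells from border macrophages. Of 30, 23 were higher and 3 lower. Csf1 (log2 5.19 ± 0.31), Cd9 (3.97 ± 0.17), Fabp5 (3.42 ± 0.26) and Lgals3 (3.19 ± 0.28) were higher in DAM-like cells. Apoe was lower, at 21873, 14870, 44383 and 48608 CPM against 54604, 49885, 58084 and 51818 (-0.88 ± 0.24), as were Lyz2 (-1.27 ± 0.28) and Lilrb4a. The Apoe call was lost when either adult mouse was left out, at 10 or more gate UMIs and with no mouse block, with an edgeR adjusted p of up to 0.121, and the values of the aged mice lay closer together than those of the adult mice. For Axl the log2 difference was -0.02 ± 0.14, and for Igf1 it was -0.52 ± 0.17, with neither called. Of class II and interferon-response genes, 6 of 8 and 23 of 25 were called lower in DAM-like cells. Cd74 stood at 2066, 566, 810 and 1062 CPM against 8403, 10513, 7086 and 7894 (-3.04 ± 0.26). The inhibitory receptor Lag3 led the genes that were higher (5.22 ± 0.28), followed by Csf1, Cd34, Ecscr, Sgk1 and Cox6a2. Of 17 glycolysis genes, 14 were called higher and 1 lower. Of 21 immediate-early genes 14 were lower and 0 higher.

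Aged DAM-like cells differed from adult ones in a limited set of genes. With age as the only term in edgeR's quasi-likelihood test over 10500 genes, 1.32% were called higher (139) and 0.181% lower (19) in aged mice. The adult values rest on 34 and 23 cells with 429792 and 261072 UMIs, and the aged ones on 317 and 425 cells with 4149068 and 5365559. The fit with diet as a covariate called 233 and 52 genes in these directions. Without the adult mouse on 5% inulin, 5 genes were called higher and 1 lower, all 6 among the 158. With at least 10 gate UMIs 6 were called, all 6 among the 158, and with only cells of 5 to 9 gate UMIs 27 were called, 16 of them among the 158. The median gate sum was higher in aged than in adult DAM-like cells, as given above, and its part in the age difference was not tested beyond these alternatives.

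Of 21 tested lipid-handling genes, 3 were called higher in aged mice (Apoe, Ch25h and Npc2), 0 lower and 18 not called, with a median log2 difference of 0.17. Npc2 lost its call in 8 of 17 alternatives. Ccl12 (a monocyte-attracting chemokine, chr11:82101845-82103400) stood at 68.7, 58.7, 294 and 287 CPM, a log2 difference of 2.17 ± 0.17 (edgeR adjusted p = 0.000364). Both aged mice were well above both adult mice, and the gene was called in all 17 alternatives. Apoe stood at 21253, 14692, 43258 and 47771 CPM, a log2 difference of 1.34 ± 0.14 (edgeR adjusted p = 0.00254). It lost its call with at least 10 gate UMIs. Lgals3bp, a galectin-3 ligand, stood at 160, 200, 449 and 465 CPM (1.36 ± 0.16, edgeR adjusted p = 0.00379) and the cytokine receptor chain Crlf2 at 160, 162, 412 and 477 CPM (1.47 ± 0.16, edgeR adjusted p = 0.00254). Axl stood at 88.6, 93.2, 187 and 173 CPM (0.99 ± 0.16, edgeR adjusted p = 0.0102). Its call was lost in 5 of 17 alternatives, at 2000 UMIs per cell, at 10 or more and at 5 to 9 gate UMIs and without either adult mouse (edgeR adjusted p up to 0.419). Lgals3bp lost its call at 5 to 9 gate UMIs, and Crlf2 there and without the adult mouse on 5%. The largest rises also took in Cox6a2, Naalad2, Ifi204, Sparcl1, Cxcl14, Bcl2a1d, Chst2 and H2-Q7, with log2 differences from 1.35 to 2.22. Each of these was called in 12 to 14 of 17 alternatives and lost its call without the adult mouse on 5%.

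**Figure D4:**
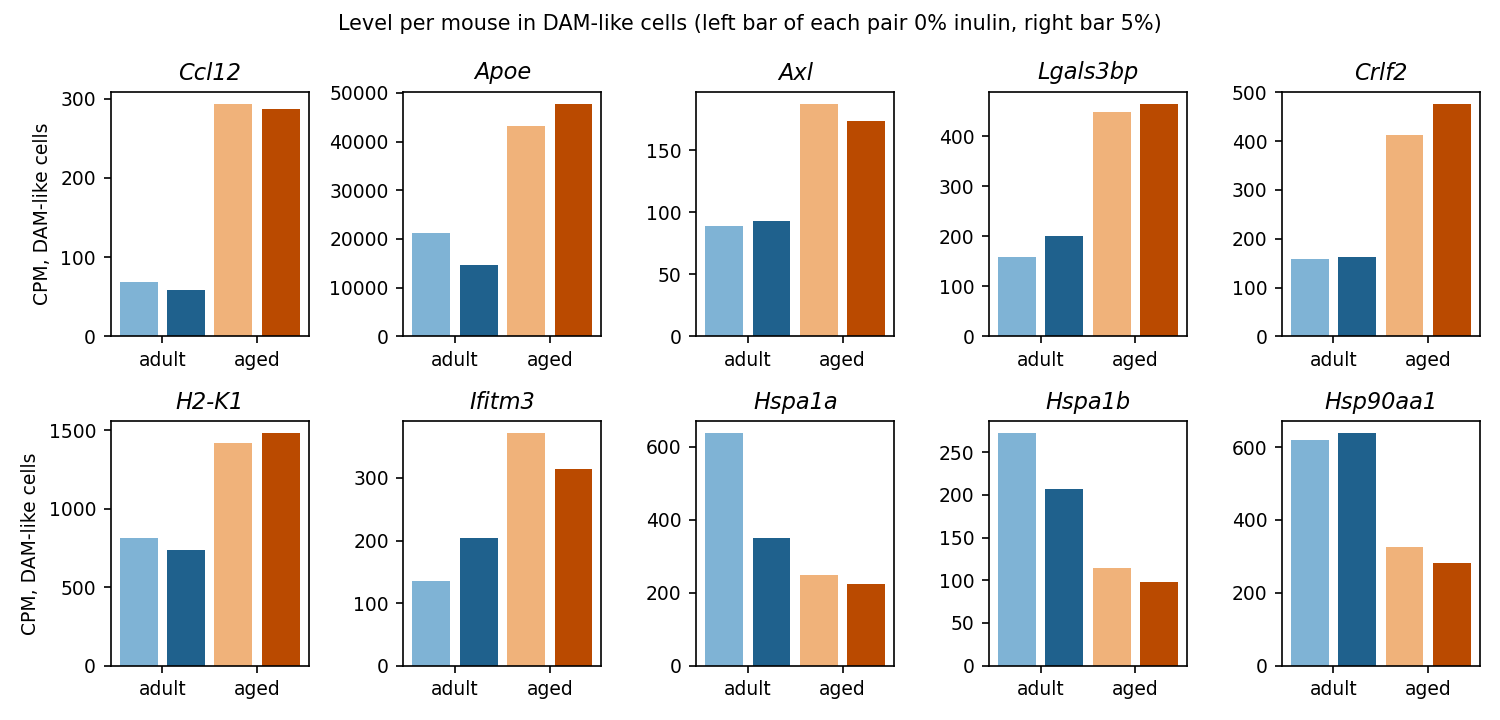
Level in DAM-like cells (CPM, y axis from 0) of 10 genes in each of the 4 mice, adult on the left and aged on the right of each panel, with the 0% inulin mouse as the left bar of each pair. In every panel the adult and aged bars do not overlap, with Hspa1a, Hspa1b and Hsp90aa1 lower in aged mice and the others higher.

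Part of the class I and interferon-response genes were called higher in aged DAM-like cells, and some chaperones lower. Of 16 class I genes, 7 were called higher and 0 lower, with a median log2 difference of 0.68 beside 0.00 over all genes tested. H2-K1 stood at 811, 736, 1416 and 1483 CPM (0.90 ± 0.13), and B2m at 2357, 2293, 3881 and 3896 (0.74 ± 0.12). Of 24 interferon-response genes, 9 were called higher and 0 lower (median 1.27), with a summed level of 1360, 1233, 2446 and 2589 CPM. Ifitm3, which blocks virus entry, stood at 135, 204, 372 and 314 CPM (1.06 ± 0.19). Of 12 heat-shock genes, 4 were called lower and 0 higher (median -0.71). Hspa1a stood at 638, 349, 249 and 224 CPM (-1.09 ± 0.21), Hspa1b at 273, 207, 115 and 98.5 (-1.20 ± 0.15) and Hsp90aa1 at 618.1, 639, 326 and 281 (-1.05 ± 0.14). Each of H2-K1, B2m, Hspa1a, Hspa1b, Hsp90aa1 and Ifitm3 lost its call in 2 to 5 of 17 alternatives, in each case at 10 or more gate UMIs and without at least 1 of the adult mice. Ribosomal protein genes were called higher in 49 of 78 cases (median 0.69). Stmn1, Ckap4, Gadd45g and Stab1 were also among the largest falls. Each was called in 10 to 12 of 17 alternatives and lost its call at 10 or more gate UMIs and without the adult mouse on 5%. Of the mural markers Acta2 and Tagln were called higher, and 1 cell held 77.9% and 82.3% of the Acta2 UMIs of the aged mice. Both mural calls were lost with the upper UMI limit and without Scrublet calls. They were also lost without cells of 10 or more class II UMIs and without the adult mouse on 5%.

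Much of the DAM-like profile was not called different by age. Of 20 homeostatic genes 0 were called, with a median of -0.20. P2ry12 stood at 678, 701, 523 and 494 CPM (-0.44 ± 0.13, edgeR adjusted p = 0.173), and Tmem119 at 434, 480, 408 and 395 (-0.18 ± 0.13, edgeR adjusted p = 0.623). Both aged mice were below both adult mice for each, by amounts that did not pass the test. Trem2 (0.55 ± 0.13, edgeR adjusted p = 0.0644) and Igf1 (0.85 ± 0.20, edgeR adjusted p = 0.0709) also fell short. Of 30 disease-associated genes, 6 were called higher, namely Apoe, Cd52, Timp2, Ch25h, B2m and Axl, and the median of the list was 0.40. Of 34 lysosomal genes 1 was called (Npc2, higher, a call lost as given above). Ctsb stood at 4108, 4268, 4290 and 3831 CPM (-0.04 ± 0.12). Lyz2 stood at 7761, 1675, 5777 and 5984 CPM and Fabp5 at 1041, 359, 697 and 806, with the spread between the adult mice larger than the age difference.

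The age difference in DAM-like cells was compared with that in the other microglia-gated cells by an interaction term over 14524 genes. The aged-to-adult ratio was higher in DAM-like than in other cells for 0.158% of genes (23) and lower for 0.241% (35), with a median interaction of 0.10 over all genes. Without the adult mouse on 5%, the counts were 1 and 10, and 7 of the 58 genes were among the 11 called. The chemokine Cxcl10 (chr5:92346638-92348889) stood at 284, 209, 96.6 and 183 CPM in DAM-like cells and at 8.85, 6.37, 71.2 and 62.7 in the other cells. The log2 ratio of aged to adult was -0.81 in DAM-like and 2.98 in other cells, and the interaction was -3.98 ± 0.31 (edgeR adjusted p = 2.85e-08). Its level in other cells was low in both adult mice and high in both aged mice, while in DAM-like cells both aged mice lay below both adult mice. In DAM-like cells, Cxcl10 was seen in 5, 3, 43 and 66 cells (14.7%, 13%, 13.6% and 15.5% without thinning). At 2000 UMIs per cell the shares were 9.09%, 13%, 6.33% and 6.59%, lower in both aged mice than in both adult mice. The adult shares rest on few cells. Thinned endothelial-gated cells gave 0.251%, 0.197%, 0.846% and 0.719%. Of the Cxcl10 UMIs of DAM-like cells, 46.3%, 62.7%, 12.0% and 50.4% came from 1 cell. In the other cells of the aged mouse on 0%, 1 cell held 40.1%. Cxcl10 lost its call without the adult mouse on 5% (edgeR adjusted p = 0.0531) and in no other alternative.

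The interaction was also negative for class II genes and Il1b. Cd74 had a log2 ratio of aged to adult of -0.41 in DAM-like and 1.42 in other cells (interaction -1.68 ± 0.28, edgeR adjusted p = 0.00229), and H2-Eb1 of -0.94 and 1.44 (-2.39 ± 0.27, edgeR adjusted p = 1.38e-05). Among 8 class II genes, 4 were called (H2-Eb1, H2-Ab1, H2-Aa and Cd74) with a median of -1.88. None of the 4 was called without cells of 10 or more class II UMIs (log2 -0.54 for H2-Eb1 and -0.57 for Cd74, edgeR adjusted p = 0.933 and 0.339), at 10 or more gate UMIs or by DESeq2. The adult mouse on 0% set much of this, since it held H2-Eb1 at 642 CPM in DAM-like cells against 152, 158 and 256 in the other 3 mice, and 1 cell gave 74.1% of its UMIs. Cells with 10 or more class II UMIs were 14.7%, 21.7%, 13.9% and 18.1% of DAM-like and 1.20%, 1.17%, 3.58% and 4.96% of other microglia-gated cells. Il1b had ratios of -0.08 and 1.78 (-2.02 ± 0.26, edgeR adjusted p = 8.25e-05), but its adult DAM-like UMIs came from 5 and 4 cells, with 55.7% and 52.6% in 1 cell each. Without the adult mouse on 0%, H2-Aa, H2-Eb1, Cd74 and Il1b were not called, and the Il1b call was also lost at 10 or more gate UMIs and at a C1q minimum of 100.

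Ccl4 had log2 ratios of aged to adult of 0.72 in DAM-like and 1.61 in other cells (interaction -0.89 ± 0.14, edgeR adjusted p = 0.00103). The call was lost in 4 of 14 alternatives, at 10 or more gate UMIs, at a C1q minimum of 100 and without either aged mouse, with an edgeR adjusted p of up to 0.377. For Apoe the ratios were 1.42 and 1.47, with an interaction of 0.01 ± 0.15 (edgeR adjusted p = 0.991), and for P2ry12 they were -0.35 and -0.23 (-0.12 ± 0.14, edgeR adjusted p = 0.849). The homeostatic, lysosomal and class I lists had 0 genes called in either direction. Of 8 neutrophil markers 3 were called higher, among them S100a8, whose level in other cells was 429 and 229 CPM in adult and 52.0 and 189 in aged mice. Its call was lost without Scrublet calls, at 10 or more gate UMIs and without either adult mouse. The part of neutrophil RNA in that difference was not tested.

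**Figure D5:**
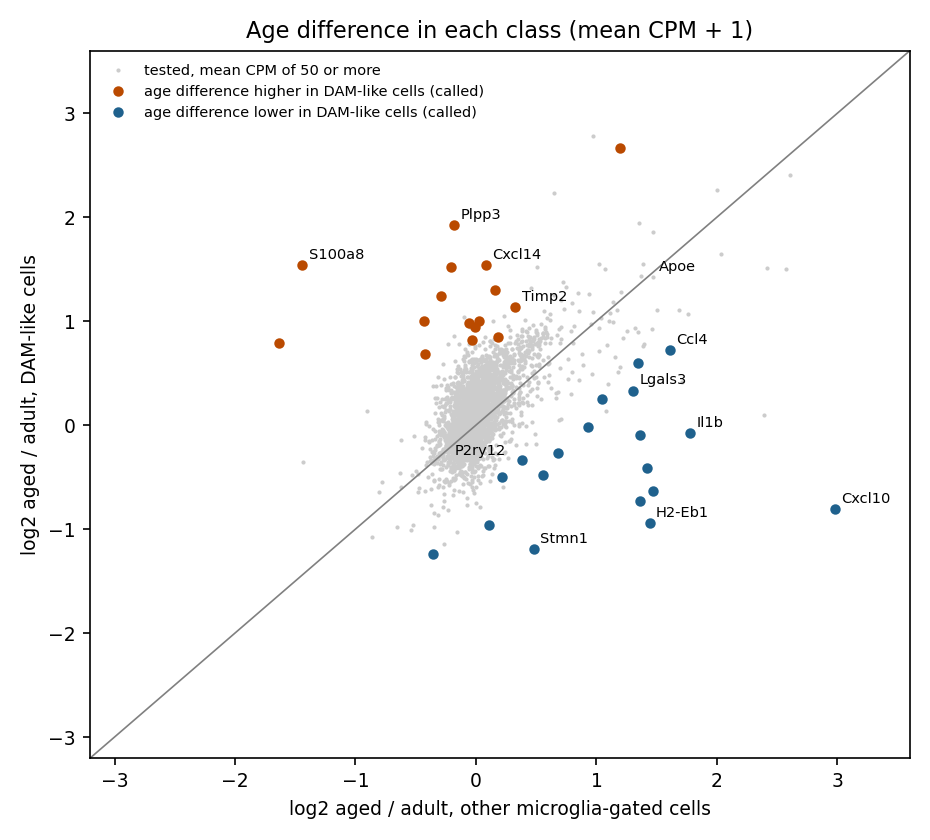
Log2 ratio of aged to adult mice (mean CPM + 1) in other microglia-gated cells (x axis) and in DAM-like cells (y axis), 1 point per tested gene with a mean CPM of 50 or more, with called genes marked and the diagonal showing equal ratios. Apoe lies on the diagonal at 1.47 and 1.42, while Cxcl10 lies far below it at 2.98 and -0.81.

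Inulin went with few differences in DAM-like cells. The share was 10.4% ± 11.5 (SD, n = 2) on 0% and 13.9% ± 17.6 (SD, n = 2) on 5% inulin, with p = 1 by the two-sided exact permutation test over mice. It was 0.738 percentage points lower on 5% in the adult pair and 7.80 points higher in the aged pair, and with 1 mouse per combination this contrast was not tested. The adult direction turned at 2000 UMIs per cell, with shares of 1.96% on 0% and 2.15% on 5%. By edgeR over 10500 genes with inulin as the only term, 0.0% were called higher (0) and 0.0476% lower (5). At an unadjusted p under 0.05 stood 149 genes. The counts from DESeq2 were 0 and 3. With age as a covariate 13 were called higher and 25 lower, and without the adult mouse on 5% 17 and 28. Leaving out the adult mouse on 0% gave 3 and 17, the aged mouse on 0% 12 and 6, and the aged mouse on 5% 1 and 0.

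All 5 genes lower on inulin are typical of neurons or ciliated ependymal cells and not of microglia. Meg3, a neuronal noncoding RNA, stood at 64.3, 3.45, 40.8 and 2.30 CPM (log2 -4.31 ± 0.44, edgeR adjusted p = 0.000426). Rarres2, which encodes chemerin, stood at 122, 10.4, 63.6 and 8.76 CPM (-3.23 ± 0.37, edgeR adjusted p = 0.00129). The other 3 were Tmem212, Ccdc153 and Nnat, with log2 differences of -3.90 and -3.03 for Tmem212 and Ccdc153. Each was higher in both mice on 0% than in both on 5%. At 2000 UMIs per cell (4 of the 5 tested), without the cells that Scrublet marked, at 10 or more gate UMIs and without the aged mouse on 5%, 0 of these 5 were called. Of these 5, Tmem212, Ccdc153 and Nnat were named after their values were seen. The summed neuron markers went the same way in DAM-like cells (112, 23.0, 76.6 and 17.9 unscaled CPM) and not in the other microglia-gated cells (49.4, 68.2, 30.9 and 42.8). Of 8 choroid and ependymal markers, 3 were called lower (Tmem212, Rarres2 and Ccdc153) and 5 were not called, and their sum in DAM-like cells (4919, 3869, 2205 and 6417, mostly Ttr) was lower on 5% in the adult pair and higher on 5% in the aged pair. The part of RNA from neurons and ependymal cells in these calls was not tested. The fit with inulin as the only term called no inulin difference for microglial genes, with Apoe at -0.05 ± 0.59, P2ry12 at -0.01 ± 0.29, Lgals3 at 0.06 ± 0.28 and Trem2 at -0.07 ± 0.37 on the log2 scale. That fit has no age term, so age differences add to its spread. Which further genes were called with age as a covariate is not given here.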

How the data were processed

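Single cells from whole brains of 4 mice were counted by the authors with Cell Ranger 3.1.0 against GRCm38, per the submitters' processing notes. Each mouse has 1 deposited matrix of UMI counts, in whole numbers and without normalization. Samples were grouped by the age and fiber labels. Sex and inulin amounts come from the methods. The members, gene lists and tests were chosen with earlier results of these data known.

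Cells were read with Python 3.11.15 (numpy 2.4.6, pandas 2.3.3, scipy 1.17.1). Doublets were scored with Scrublet in scanpy 1.11.5 (expected rate 0.08, seed 0) and kept. Thinning drew 2000 UMIs per cell without replacement. UMIs were summed per mouse and class, and tested in R 4.3.3 with edgeR 4.0.16 (limma 3.58.1): filterByExpr, TMM, glmQLFit and glmQLFTest, with the 15 gate genes kept in library sizes and left out of the results. Cells are not replicates, so the tests rest on 4 mice. The SE is the absolute log2 fold change divided by the square root of F. Whether the spread between 2 mice holds anything beyond preparation cannot be told apart. The steps were tested on simulated data.

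For each comparison the 12 largest rises and 8 largest falls were named among called genes with a mean CPM of at least 50 and the same side in every mouse, leaving out ribosomal, mitochondrial and hemoglobin genes, together with the 4 most abundant members of each list and a fixed set of 19 genes. Some genes that these rules named are not reported here. Other names were picked after their values were seen. Alternatives were DESeq2 1.42.0, RLE scaling, no filter, other gates and cell limits, thinning, covariates and leaving out each mouse. Leaving out cells with 50 or more immunoglobulin UMIs or 10 or more class II UMIs was added after seeing the data. Coordinates are from GENCODE vM21 (GRCm38).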

Additional observations from a re-analysis of the deposited data

Results flagged for a closer look

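The age difference of 29 named genes differed between DAM-like and other microglia-gated cells by the interaction term of edgeR's quasi-likelihood test, which is what marks them here. The values are log2 age differences in DAM-like minus other cells. Positive values were those of Retnlg (4.86), S100a8 (3.20), Tagln (2.84), S100a9 (2.60), Fn1 (2.28), Plpp3 (2.09), Sparcl1 (1.76), Ptn (1.68), Aldoc (1.5), Cxcl14 (1.42), Slc1a2 (1.17), Ggh (1.07), Ms4a6d (1.07), Slc38a10 (1.02) and Timp2 (0.81). Negative values were those of Cxcl10 (-3.98), Mki67 (-3.33), Top2a (-3.16), Cdk1 (-2.45), H2-Eb1 (-2.39), H2-Aa (-2.14), H2-Ab1 (-2.09), Il1b (-2.02), Cd74 (-1.68), Stmn1 (-1.58), Cdkn1a (-1.53), Lgals3 (-1.05), Ccl4 (-0.89) and Ccl3 (-0.77). The sign does not tell in which class the age difference was larger. Summed neutrophil markers stood at 1415 and 736 unscaled CPM in adult and 150 and 503 in aged mice in the other cells. In DAM-like cells they stood at 65.1 and 80.4 in adult and 88.2 and 158 in aged mice. Retnlg, S100a8 and S100a9 are neutrophil genes, Plpp3, Sparcl1, Ptn, Aldoc and Slc1a2 are high in astrocytes, and Tagln marks smooth muscle. The part of RNA from those cells was not tested. Of the 29, 0 were called under every alternative, and Cxcl10 was called under 13 of 14.

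With the main gate, the share of DAM-like cells differed with inulin in opposite directions at the 2 ages, by -0.738 percentage points in the adult and 7.80 in the aged pair. The adult direction turned in the settings that allow for depth. The adult shares on 0% and 5% were 1.96% and 2.15% at 2000 UMIs per cell, and 1.01% and 1.32% at 4000. They were 1.36% and 1.41% at a gate of 8 UMIs per 10000. Under the other gates and cell limits the adult share stayed lower on 5%. With 1 mouse per combination the difference was not tested.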

How the results depend on the processing

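The difference in share, 20.6 percentage points, kept its direction under every alternative run, between 15.1 (at least 10 gate UMIs) and 25.8 points (at least 3), or 4.74 points of all cells within the limits, and between 16.7 and 24.5 leaving out 1 mouse. Genes called higher and lower in DAM-like against other microglia-gated cells numbered 782 and 561 at 2000 UMIs per cell, 1948 and 2215 by adjusted p alone, and 657 lower by DESeq2. Against border-macrophage-gated cells they numbered 333 and 384 at 2000 UMIs. Leaving out 1 mouse gave 888 to 1184 and 909 to 1153, and 602 to 673 and 700 to 763. By age in DAM-like cells they numbered 280 and 63 with the upper UMI limit, 6 and 0 at 10 or more gate UMIs, 19 and 8 at 5 to 9, 405 and 61 with no filter, and 233 and 52 with diet as covariate, and 5 to 151 and 1 to 25 leaving out 1 mouse. By inulin they numbered 2 and 16 with no filter and 13 and 25 with age as covariate. Fewer were lower at 2000 UMIs (0), with the upper UMI limit (1), without Scrublet calls (0), at 10 or more gate UMIs (0), at a C1q minimum of 100 (3) and by DESeq2 (3). Leaving out 1 mouse gave 1 to 17 and 0 to 28. For the interaction they numbered 69 and 7 at 2000 UMIs, 132 and 74 with the upper UMI limit, 2 and 5 at 10 or more gate UMIs, 7 and 20 at a C1q minimum of 100, 7 and 19 by DESeq2, and 82 and 57 with no filter. They were 12 higher without Scrublet calls and 111 higher without class II cells. Leaving out 1 mouse gave 1 to 79 and 10 to 24. Direction turned for Slc1a2 (0.32) and Aldoc (0.10) against other microglia without Scrublet calls, and for H2-Ab1 there at 10 or more gate UMIs (-0.069) and, leaving out 1 mouse, from -0.049 without the adult mouse on 0% to 0.98. It turned for Igkc against border macrophages without immunoglobulin cells (-0.035), and at 10 or more gate UMIs for Stmn1 by age (0.79) and in the interaction (0.48) and for Top2a in the interaction (8.03). The cause of these changes was not tested. Named genes called in every alternative numbered 65 of 91 against other microglia, 65 of 74 against border macrophages, 2 of 36 by age, 0 of 30 in the interaction and 0 of 3 by inulin. No paired analysis was possible because the labels number no replicates, so a replicate number here only names a mouse. It coincides with diet, and the fit with diet as covariate is given above. The mouse was already a block in the comparisons between classes. The 2 adult sums of 429792 and 261072 UMIs limit what the age comparison can show.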

Other observations

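The share of cells with a UMI gave another view of the genes outside the gate. With each cell thinned to 2000 UMIs, Lgals3 was seen in 30.3% and 39.1% of DAM-like cells in the adult mice (0% and 5% inulin) and in 35.8% and 42.1% in the aged mice. The shares without thinning were 50%, 47.8%, 59.0% and 63.5%. In other microglia-gated cells the thinned shares were 1.24%, 0.886%, 2.80% and 2.64%. Endothelial-gated cells, a type not known for the gene, gave 1.12% to 2.01%, so the shares of the other microglia-gated cells were near this background in the adult mice. Igf1 was seen in 15.2%, 8.70%, 13.6% and 15.3% of thinned DAM-like cells and in 0.126%, 0.329%, 0.211% and 0.151% of thinned endothelial-gated cells.

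Receptor and matrix genes were higher in DAM-like than in other microglia-gated cells for part of each list. Of 23 complement and phagocytic receptor genes tested, 10 were called higher by edgeR's quasi-likelihood test and 0 lower, with a median log2 difference of 0.52 against -0.10 over all genes tested (8.16% of which were called higher). The complement receptor C3ar1 differed by 1.12 ± 0.11 (SE) on the log2 scale. Mertk, a receptor for dying cells, stood at -0.57 ± 0.10 with an adjusted p of 1.3e-05 in the same edgeR test, lower in all 4 mice but inside the 1.5-fold limit of a call. Of 20 matrix and adhesion genes, 11 were called higher and 0 lower, with a median of 1.10. The intermediate filament Vim differed by 2.19 ± 0.11, the phosphatidylserine-binding Anxa5 by 2.14 ± 0.10 and the hyaluronan receptor Cd44 by 3.09 ± 0.25. C3ar1, Mertk, Vim, Anxa5 and Cd44 were picked after their values were seen.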
